A study of Mus musculus with 12 samples.

Results

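The nuclear genes for the structural subunits of the mitochondrial respiratory chain and ATP synthase were examined in RAW264.7 cells, a mouse macrophage line, with and without the transcription factors TFEB and TFE3. Members were the protein-coding genes of the count table whose symbols name a subunit of complexes I to V and whose counts summed to at least 100 over the 12 libraries. Of 87 annotated genes with such symbols, 85 were in the table and 83 reached that sum, out of 32688 genes in all. They comprised 38 genes of complex I, 4 of complex II, 9 of complex III, 15 of complex IV and 17 of complex V. Cox8b, with 20 counts, and Cox8c, with 2 counts, were left out by the limit. All 83 members were among the 18066 genes tested.

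Null cells (genotype Null in the labels) and CRISPR TFEB/TFE3 double-knockout (DKO) cells were each grown in high-glucose DMEM with serum. They were harvested as controls or after 100 µM etoposide for 8 h, which gave the groups Null control, Null etoposide, DKO control and DKO etoposide with 3 libraries each. Etoposide poisons topoisomerase II and thereby breaks DNA. The labels describe the control cells as untreated, whereas the methods of the study name DMSO, and the labels list a pair of RNA kits without assigning them to libraries. Each genotype was a single line, so a difference between lines cannot be told apart from one caused by the deletion. The study calls its etoposide samples independent without saying whether they were separate cultures, so p-values measure the spread between these libraries, part of which may be technical.

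The respiratory chain passes electrons from NADH (complex I) and succinate (complex II) through ubiquinone to complex III, then through cytochrome c to complex IV, which reduces oxygen. Complexes I, III and IV pump protons across the inner mitochondrial membrane, and complex V, the ATP synthase, uses the returning protons to make ATP. A small set of core subunits of complexes I, III, IV and V is encoded by the mitochondrial genome, and all other subunits are nuclear genes whose promoters are known targets of NRF1, of GABP and other ETS factors and of the PGC-1 coactivators. Macrophages are known to change their use of oxidative phosphorylation with activation state. TFEB and TFE3 are best known as activators of lysosomal genes through the CLEAR motif, an E-box with fixed flanks.

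Total counts ran from 29837255 to 61809316 per library, and members took 0.711% to 0.868% of them. Tfe3 stood at 89.4 to 119 CPM (counts scaled to library sizes with TMM factors) in the 6 Null libraries and at 31.5 to 42.5 CPM in the 6 DKO libraries, and Tfeb at 7.1 to 17.2 CPM and 3.14 to 5.25 CPM. Reads over genes with CRISPR lesions do not measure protein. The 3 DKO etoposide titles add MEFs, the usual abbreviation for mouse embryonic fibroblasts, although the source and tissue labels give RAW264.7. Over all 12 libraries, 8 macrophage markers summed to at least 4193 CPM and 8 fibroblast markers to at most 2.04 CPM, with 6 of the 8 fibroblast genes too low to test. Col1a1 was at 0 to 0.135 CPM. Of 8 known targets of p53, the factor activated by broken DNA, 8 rose with etoposide in Null cells and 7 in DKO cells (median log2 changes of 3.56 and 2.59).

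Of the 83 members, 77 had a mean of 10 CPM or more over the 12 libraries. Per kilobase of transcript (median length of the coding transcripts), which is the scale on which genes can be compared, the highest mean levels were 583 CPM per kb for Atp5b, the catalytic beta subunit of ATP synthase, and 583 CPM per kb for Uqcrh, the hinge protein of complex III. In complex I, Ndufa1 (217 CPM per kb) and Ndufa4 (193 CPM per kb) led. Ndufa4 is named for complex I, although its protein is now counted with complex IV. In complex II, the membrane anchor Sdhc stood at 105 CPM per kb by the median length of its coding transcripts but at 26.9 CPM per kb by that of its principal transcript, and Sdha, the flavoprotein that oxidizes succinate, at 75.9 and 47.4 CPM per kb, so that their order rests on the length used. In complex IV, Cox6b1 (342 CPM per kb) and Cox6a1 (313 CPM per kb) led. By the principal transcript, Cox6a1 (313 CPM per kb) and Cox4i1 (272 CPM per kb) led, just ahead of Cox6b1 (269 CPM per kb). The lowest were the alternative isoforms Cox6b2 (0.682 CPM per kb), Ndufa4l2 (0.744), Cox4i2 (0.928) and Cox7a1 (3.58). By the principal transcript, Atp5s (2.11 CPM per kb) and Ndufb2 (3.15) lay below Cox7a1 (4). The level of Uqcrc1, a core protein of complex III, also rests on the length used, at 484 or 156 CPM per kb. These lengths gave values over 1.5-fold apart for 21 of the 83 members.

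In Null cells, etoposide changed 12 subunit genes, in both directions. Of 83 members, 4 rose and 8 fell, 14.5% of the set. Of all genes tested, 39.6% passed the same test (limma-trend, Benjamini-Hochberg adjusted p under 0.05 over all genes), 20.9% higher and 18.7% lower. Here called means past this test, and a gene that was not called may pass by another tool or setting. The median log2 fold change of the members was 0.01, beside 0.03 for all genes, and the quartiles of the members were -0.10 and 0.13. For 63 of the 83 members the 95% confidence interval of the fold change lay wholly within 1.5-fold in either direction, which held for 32.2% of all genes tested.

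The largest change of any member was in Cox6a2, the heart and skeletal muscle isoform of a regulatory subunit of cytochrome c oxidase (chr7:128205435-128206387, minus strand, GRCm38). Null control libraries held 7.46, 6.04 and 6 CPM of Cox6a2 and Null etoposide libraries 0.589, 0.436 and 0.212 CPM. DKO control libraries held 8.66, 10.4 and 11.2 CPM and DKO etoposide libraries 0.854, 0.490 and 0.510 CPM. Every DKO control library exceeded every Null control library, a difference not called in the main fit. It passed by DESeq2 (0.63, adjusted p = 0.0256) and by limma-trend with only the groups compared (0.62, adjusted p = 0.0443). All 6 control libraries stood far above all 6 etoposide libraries. The gene fell by 3.88 ± 0.292 (SE) on the log2 scale in Null cells (14.7-fold lower, adjusted p = 6.08e-07 by limma-trend) and by 3.94 ± 0.292 in DKO cells (15.3-fold lower, adjusted p = 4.1e-07). Its ubiquitous paralog Cox6a1 ran at 160 to 190 CPM in all 12 libraries, with log2 fold changes of 0.03 ± 0.0732 and 0.12 ± 0.0732 and adjusted p of 0.764 and 0.235. Per kilobase, the mean level over all libraries was 6.48 CPM per kb for Cox6a2 and 313 CPM per kb for Cox6a1. Exons of Cox6a2 overlap 70 bases of Itgad, a gene on the opposite strand that held at most 0.671 CPM and could account for at most 0.112% of the Cox6a2 counts.

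**Figure D1:**
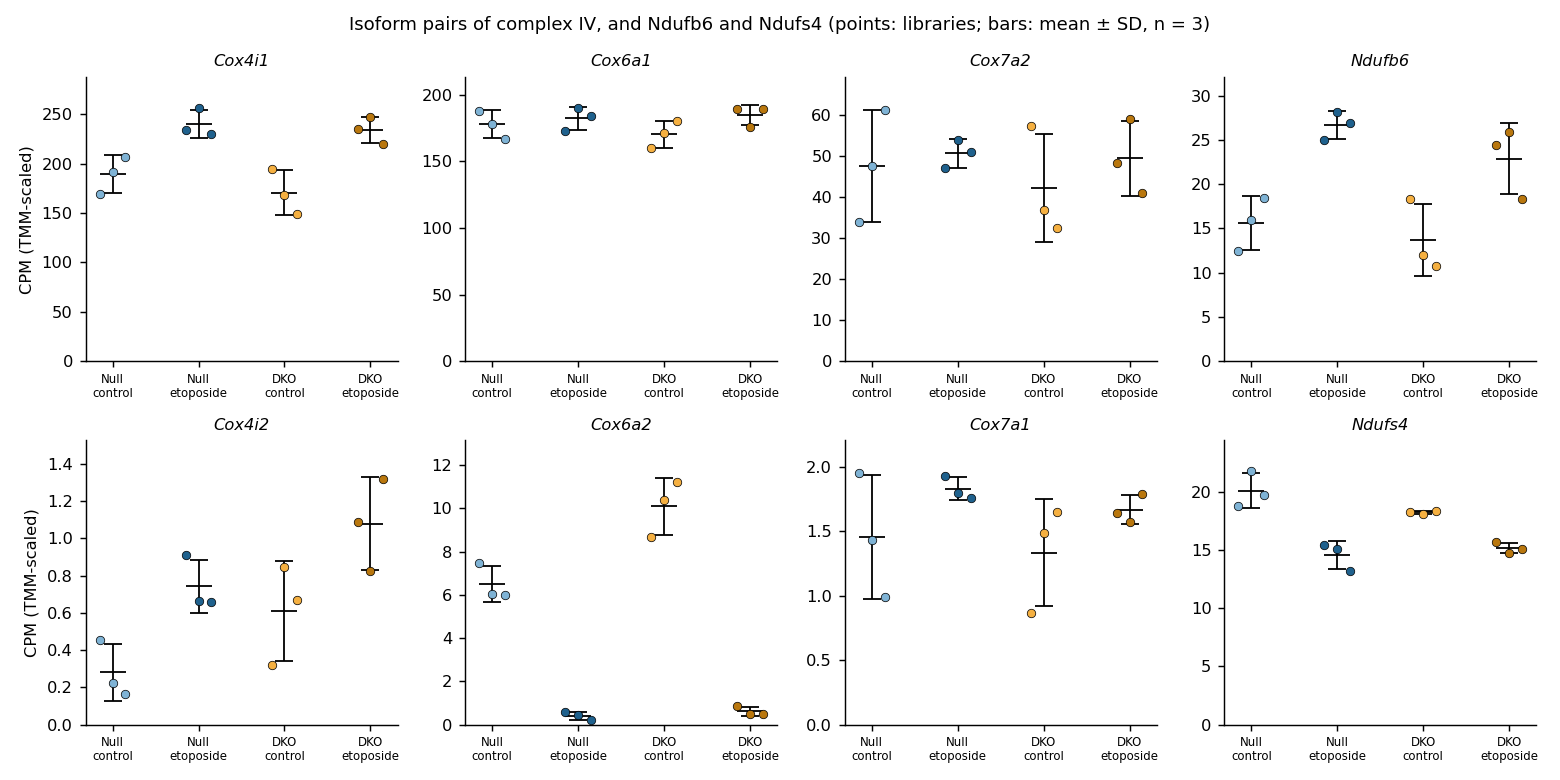
CPM (vertical axes, from 0) of 8 subunit genes in the 12 libraries by group, with points for libraries and bars for the mean ± SD (n = 3). Cox6a2 drops to below 1 CPM in all 6 etoposide libraries, whereas its paralog Cox6a1 lies between 160 and 190 CPM throughout.

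Cox4i1 encodes the common form of subunit IV, and Cox4i2 the form known from lung and from cells in low oxygen. Cox4i1 read 169, 192 and 207 CPM in Null control cells and 234, 256 and 230 CPM after etoposide. In DKO cells it read 195, 168 and 149 CPM, and 235, 247 and 220 CPM after etoposide. No control library reached the lowest etoposide library of either line. The rise was 0.35 ± 0.105 on the log2 scale in Null cells (adjusted p = 0.0204) and 0.47 ± 0.105 in DKO cells (adjusted p = 0.00371). The call in Null cells was lost under 5 of 23 alternative settings, for instance at 0.27 (adjusted p = 0.075) without Null control replicate 1 and at 0.23 (adjusted p = 0.112) with a correction for transcript length and GC content.

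Cox4i2 was found at under 1.4 CPM everywhere, with 0.454, 0.222 and 0.165 CPM in Null control and 0.908, 0.663 and 0.656 CPM in Null etoposide libraries. It rose by 1.32 ± 0.368 on the log2 scale in Null cells (adjusted p = 0.0128), and the call was lost without Null control replicate 3 (1.06, adjusted p = 0.051) or Null etoposide replicate 1 (1.16, adjusted p = 0.0579). In DKO cells it held 0.319, 0.844 and 0.671 CPM in control and 1.09, 0.822 and 1.32 CPM in etoposide libraries, where the groups overlapped and the difference of 0.83 ± 0.368 did not pass (adjusted p = 0.096). The difference between those responses was -0.49 ± 0.520 (adjusted p = 0.696).

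Other isoform sets showed no called change with etoposide except where stated. Cox7a1, the muscle form of subunit VIIa, stood at 0.864 to 1.95 CPM, Cox7a2 at 32.4 to 61.2 CPM and Cox7a2l, a supercomplex assembly factor related to them, at 185 to 226 CPM. None of the 3 was called by limma-trend in any contrast, and neither were Cox6b1, Cox6b2, Cox7b or Cox8a. Under other settings Cox6b1, the common form of subunit VIb, passed in 7 for etoposide in DKO cells, among them DESeq2 (0.48, adjusted p = 0.0305) and the omission of DKO control replicate 1 (0.67, adjusted p = 0.00609). Cox7b passed with a correction for transcript length and GC content in Null cells (0.36, adjusted p = 0.0396) and in DKO cells (0.44, adjusted p = 0.0159), and Cox8a without Null control replicate 3 in DKO cells (0.28, adjusted p = 0.0394). Ndufa4l2, a low oxygen-inducible relative of Ndufa4, fell by 1.40 ± 0.243 in Null cells (adjusted p = 5.68e-04) and by 1.08 ± 0.243 in DKO cells (adjusted p = 0.00343) on the log2 scale. Its level never exceeded 1.43 CPM, and it shares 32 exonic bases with Shmt2, an abundant gene on the opposite strand at 257 to 871 CPM that fell by 1.30 and 1.58 in the same comparisons. The libraries were stranded by the study's methods, but whether the counting used strand is not given. If it did not, reads from that overlap alone could exceed all Ndufa4l2 counts. The decrease therefore cannot be told apart from that of Shmt2.

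In complex I, 6 of the 38 genes changed with etoposide in Null cells (15.8%, all genes 39.6%) and 8 in DKO cells (21.1%, all genes 39.3%). The largest rise was in Ndufb6, a membrane arm accessory subunit, which read 12.4, 16.0 and 18.4 CPM in Null control, 25, 28.1 and 26.9 CPM in Null etoposide libraries, then 18.3, 12 and 10.8 CPM in DKO control and 24.4, 25.9 and 18.3 CPM in DKO etoposide libraries. In Null cells the groups did not overlap, whereas DKO control replicate 1 and DKO etoposide replicate 3 stood at about the same level. It rose by 0.79 ± 0.199 in Null cells (1.73-fold, adjusted p = 0.00723) and by 0.75 ± 0.199 in DKO cells (1.69-fold, adjusted p = 0.00946) on the log2 scale. Up to 31.3% of its 75-base stretches occur elsewhere in the annotated transcripts or their pseudogenes, so its level is uncertain if reads were shared between copies.

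Ndufab1 is the mitochondrial acyl carrier protein, which serves fatty acid and lipoate synthesis as well as complex I. It stood at 25.2, 25.3 and 25.8 CPM in Null control and 33.1, 33.7 and 32.9 CPM in Null etoposide libraries. In DKO cells it stood at 26.4, 24.6 and 25.8 CPM, and at 32, 30 and 32.2 CPM after the drug. This was the tightest of the rises, with no overlap in either line and log2 changes of 0.39 ± 0.0647 (adjusted p = 4.47e-04) and 0.29 ± 0.0647 (adjusted p = 0.00308).

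Ndufs4, an assembly-critical subunit whose loss causes Leigh syndrome, moved the other way. Its levels were 18.8, 21.8 and 19.8 CPM in Null control and 15.5, 15.1 and 13.2 CPM in Null etoposide libraries, and 18.3, 18.1 and 18.4 CPM and then 15.7, 14.8 and 15.1 CPM in DKO cells. Every etoposide library was below every control library. It fell by 0.46 ± 0.0868 in Null cells (adjusted p = 0.00104) and by 0.26 ± 0.0868 in DKO cells (adjusted p = 0.0302) on the log2 scale. The call in DKO cells was lost in 11 of 23 alternative settings, including the omission of any one of the 6 DKO libraries (log2 changes of -0.28 to -0.23, adjusted p up to 0.0996). With the length and GC correction the change shrank to -0.13 (adjusted p = 0.278).

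Ndufv3, an accessory subunit of the NADH-oxidizing arm, fell by 0.39 ± 0.0932 on the log2 scale in Null cells (adjusted p = 0.00512), from 46.1, 41 and 37.2 CPM to 30.3, 30.9 and 33.3 CPM. In DKO cells it went from 34.2, 38.1 and 39.9 CPM to 37.4, 34.6 and 38.7 CPM (-0.02 ± 0.0932, adjusted p = 0.897). The difference between the responses, 0.37 ± 0.132, did not pass (adjusted p = 0.113). Ndufs8, a core subunit that carries iron-sulfur clusters on the path to ubiquinone, fell by 0.38 ± 0.128 in Null cells (adjusted p = 0.0311), a call lost without Null control replicate 2 (-0.37, adjusted p = 0.086), Null control replicate 3 (-0.31, adjusted p = 0.104), Null etoposide replicate 1 (-0.33, adjusted p = 0.107) or Null etoposide replicate 3 (-0.39, adjusted p = 0.075). No other of the 7 nuclear core subunits of complex I was called by limma-trend in any contrast. Ndufs1, which holds iron-sulfur clusters of the electron path, ran at 96.2 to 128 CPM, and Ndufv1, which binds NADH, at 56.7 to 91.5 CPM.

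Complex II is made from nuclear genes alone. Sdhb, its iron-sulfur subunit, read 89.1, 99.7 and 99.3 CPM in Null control and 75.2, 77 and 72.9 CPM in Null etoposide libraries, and 87.3, 78.5 and 72.8 CPM and then 81.7, 81.9 and 76.9 CPM in DKO cells. The Null groups stood apart and the DKO groups overlapped. Sdhb fell by 0.35 ± 0.0784 on the log2 scale in Null cells (1.28-fold lower, adjusted p = 0.0032) and differed by 0.01 ± 0.0784 in DKO cells (adjusted p = 0.906). The difference of the responses was 0.37 ± 0.111 and missed the threshold (adjusted p = 0.0597). It passed by DESeq2 (0.38, adjusted p = 0.00593), with scaling without the mitochondrial genome (0.38, adjusted p = 0.0425), without DKO control replicate 1 (0.46, adjusted p = 0.00978) and without Null control replicate 1 (0.42, adjusted p = 0.0317). Sdha went from 129, 159 and 169 CPM to 125, 128 and 122 CPM in Null cells, a log2 difference of -0.28 ± 0.113 that did not pass (adjusted p = 0.0709) except by DESeq2 (-0.29, adjusted p = 0.0359) or without Null control replicate 1 (-0.39, adjusted p = 0.0108) or DKO control replicate 1 (-0.29, adjusted p = 0.0184), and Sdhc and Sdhd were not called by limma-trend in any contrast.

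In DKO cells the subunit genes that changed with etoposide mostly rose. Of the 83 members, 11 rose and 3 fell, 16.9% of the set against 39.3% of all genes tested (20.2% higher, 19.1% lower), and the median log2 fold change was 0.13 (all genes 0.03), with quartiles of 0.04 and 0.27. The point estimate was positive for 70 members and for 9458 of the 18066 genes tested. The interval lay within 1.5-fold for 55 of the 83. Beside Ndufb6, Ndufab1 and Cox4i1, the genes that rose were Ndufa4, Ndufa7, Ndufb10 and Ndufc1 of complex I, Uqcr11 of complex III, and Atp5d, Atp5g1 and Atp5mpl of ATP synthase. Their log2 changes ran from 0.27 to 0.50, and in linear terms from 1.20-fold to 1.42-fold. The number rising depended on the setting: it was 24 when DKO control replicate 1 was left out, 9 at the least when another library was, and 19 with the length and GC correction. The share of all genes under these settings is not given here. The comparison with 20.2% therefore holds for the main fit alone. Ndufc1, at 0.45 ± 0.153 (adjusted p = 0.0352), was no longer called without DKO control replicate 1 (0.28, adjusted p = 0.0972), DKO etoposide replicate 1 (0.48, adjusted p = 0.0639) or DKO etoposide replicate 3 (0.38, adjusted p = 0.111).

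Atp5g1, 1 of 3 genes for the ATP synthase subunit c that forms the rotating ring, read 82.7, 61.9 and 61.1 CPM in DKO control and 95.2, 106 and 88.2 CPM in DKO etoposide libraries. The groups did not overlap, although DKO control replicate 1 came close. It rose by 0.50 ± 0.139 on the log2 scale (adjusted p = 0.0119). The same gene went from 60.8, 75.9 and 81.2 CPM to 74.9, 91.7 and 83.9 CPM in Null cells (0.21 ± 0.139, adjusted p = 0.266), and the difference of 0.30 ± 0.197 did not pass (adjusted p = 0.463). Atp5g2, for which 86.9% of 75-base stretches occur elsewhere, and Atp5g3 encode the same mature protein and were not called. Atp5g3 varied widely within groups, with 159, 91.1 and 59.5 CPM in Null control libraries, as did Ndufa1, a membrane arm subunit of complex I, with 41.5, 117 and 129 CPM in DKO control libraries.

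Uqcr11, a small subunit of complex III, read 45.7, 60.8 and 55.3 CPM in DKO control and 74.4, 63.8 and 75.5 CPM in DKO etoposide libraries, and rose by 0.41 ± 0.115 (adjusted p = 0.0136). In Null cells it stood at 56.1 to 68.2 CPM in controls and 62.5 to 68.5 CPM with the drug (0.02 ± 0.115, adjusted p = 0.894). Here too the responses were not shown to differ (0.38 ± 0.163, adjusted p = 0.198). Atp5mpl, a small membrane subunit of ATP synthase, went from 16.4, 15.8 and 14.9 CPM to 22.6, 21.7 and 19.9 CPM in DKO cells (0.44 ± 0.0998, adjusted p = 0.00356). Of the catalytic F1 subunits, Atp5d, the delta subunit of the central stalk, rose by 0.37 ± 0.0979 in DKO cells (adjusted p = 0.00893), a call lost with the length and GC correction (0.21, adjusted p = 0.117). Atp5c1, the gamma subunit that turns inside the catalytic head, fell by 0.28 ± 0.0884 in Null cells (adjusted p = 0.0242), a call lost in 7 of 23 alternative settings, 5 of them the omission of 1 library (-0.30 to -0.22, adjusted p up to 0.0913) and another the length and GC correction (-0.17, adjusted p = 0.111). Atp5a1 and Atp5b, the alpha and beta subunits, stood at 887 to 1087 CPM and 997 to 1322 CPM and were not called in any contrast.

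**Figure D2:**
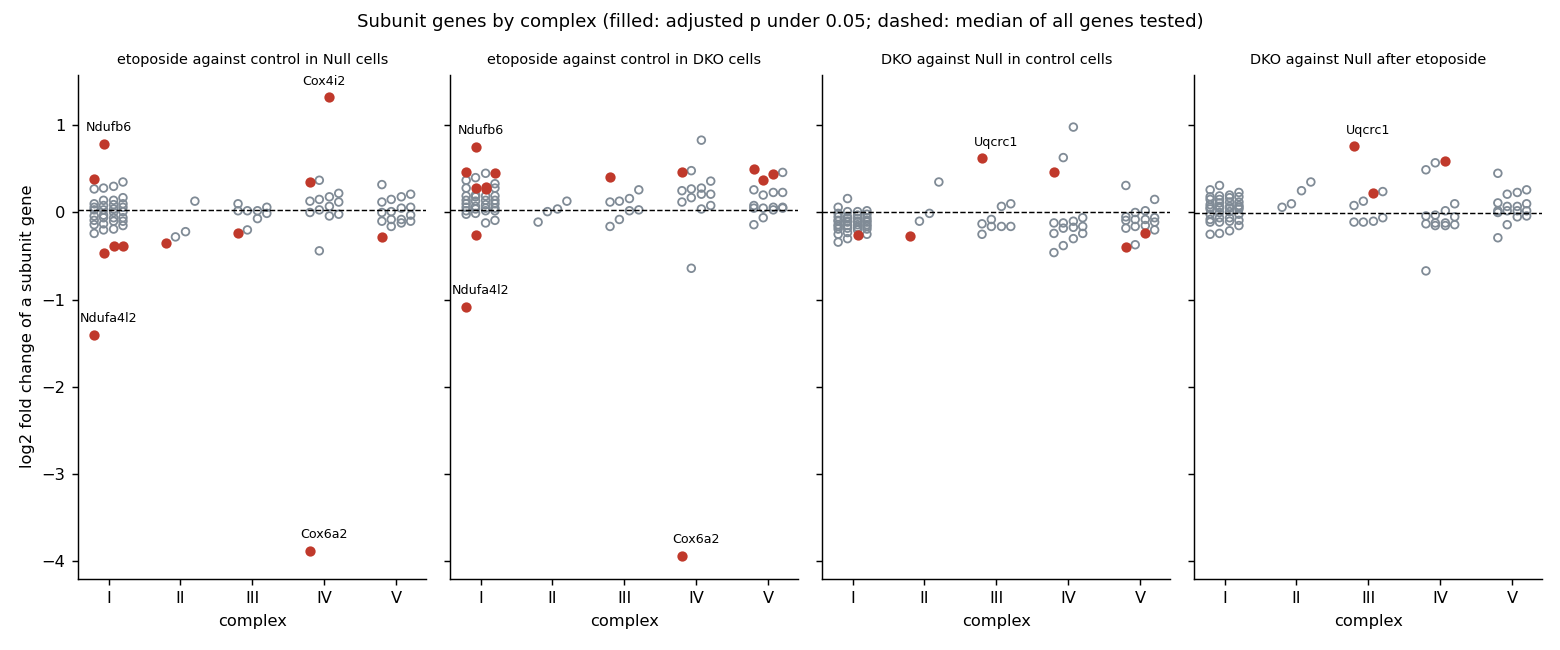
Log2 fold change of each of the 83 subunit genes (vertical axis) by complex in 4 contrasts, with filled points for genes at an adjusted p under 0.05 and a dashed line at the median of all genes tested. Most points lie close to the dashed line, and Cox6a2 is near -3.9 in both etoposide contrasts. In the contrast of DKO with Null control cells, 33 of the 38 complex I points lie below 0, as do 9103 of the 18066 genes tested.

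In control cells, DKO and Null libraries differed in 6 members, 2 higher and 4 lower in DKO cells, 7.23% of the set against 19.3% of all genes tested (10.9% higher, 8.39% lower). The median was -0.11 on the log2 scale (all genes 0.00 to 2 decimals), with medians of -0.11, -0.06, -0.13, -0.16 and -0.09 for complexes I to V. The point estimate was negative for 67 of the 83 members and for 9103 of the 18066 genes tested. The number called lower depended on single control libraries. It was 14 without DKO control replicate 1, 8 without Null control replicate 1, 2 without DKO control replicate 2, 1 without DKO control replicate 3 and 0 without Null control replicate 2. The contrast shares its DKO control libraries with the etoposide contrast in DKO cells, so their values are not independent. None of the 4 lower calls held when only the control groups were fitted. The main fit shares its error with the etoposide groups, whose replicates varied less than the controls.

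The median ranged from -0.18 to -0.05 when single libraries were left out. With all libraries, 4.82% of members were called lower, below the 8.39% of all genes. Without DKO control replicate 1 the members had the larger share, with 14 of the 83 members and 2290 of all genes tested called lower. Uqcrc1 and Cox5a were the members called higher. Uqcrc1, at chr9:108936633-108949623 on the plus strand (GRCm38), read 206, 202 and 179 CPM in Null control, 194, 208 and 192 CPM in Null etoposide libraries, then 274, 322 and 307 CPM in DKO control and 344, 317 and 346 CPM in DKO etoposide libraries. Every DKO library exceeded every Null library. The gene was higher in DKO cells by 0.62 ± 0.0831 on the log2 scale in controls (1.54-fold, adjusted p = 1.42e-04) and by 0.76 ± 0.0831 after etoposide (1.69-fold, adjusted p = 1.65e-05). Its response to etoposide was not called in either line (0.02 and 0.16). Uqcrc2, the partner core protein, read 200, 224 and 220 CPM in Null control and 217, 229 and 231 CPM in DKO control libraries (0.07 ± 0.0712, adjusted p = 0.573). After etoposide it was higher in DKO cells by 0.22 ± 0.0712 (adjusted p = 0.0317), with 203, 210 and 226 CPM against 183, 190 and 175 CPM, and the call was lost without DKO etoposide replicate 3 (0.18, adjusted p = 0.112) or replicate 2 (0.24, adjusted p = 0.0591) and without Null etoposide replicate 3 (0.19, adjusted p = 0.131) or replicate 1 (0.23, adjusted p = 0.0768). With etoposide Uqcrc2 fell by 0.23 ± 0.0712 on the log2 scale in Null cells (adjusted p = 0.0213). That call was lost with the length and GC correction (-0.10, adjusted p = 0.213) and without Null control replicate 2 (-0.20, adjusted p = 0.0873), Null control replicate 3 (-0.21, adjusted p = 0.0621) or Null etoposide replicate 3 (-0.20, adjusted p = 0.0982).

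Cox5a, a matrix-side subunit of complex IV at chr9:57521274-57532426 (plus strand), read 58.9, 53.1 and 48.9 CPM in Null control, 47.3, 54.5 and 54.9 CPM in Null etoposide libraries, then 78.5, 69.4 and 74.2 CPM in DKO control and 84.8, 79.3 and 71.5 CPM in DKO etoposide libraries. As for Uqcrc1, no Null library reached a DKO library. Cox5a was higher by 0.47 ± 0.0953 in control cells (1.38-fold, adjusted p = 0.00355) and by 0.59 ± 0.0953 after etoposide (1.5-fold, adjusted p = 4.19e-04). Its partner subunit Cox5b was not called by limma-trend, at -0.24 ± 0.154 (adjusted p = 0.351) and -0.14 ± 0.154 (adjusted p = 0.534), although the former passed without DKO control replicate 1 (-0.43, adjusted p = 0.0269). Of the 75-base stretches of Cox5a, 21.7% occur elsewhere, which limits the certainty of its level. Uqcrc1 and Cox5a were the members whose genotype calls held under all 23 alternative settings.

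**Figure D3:**
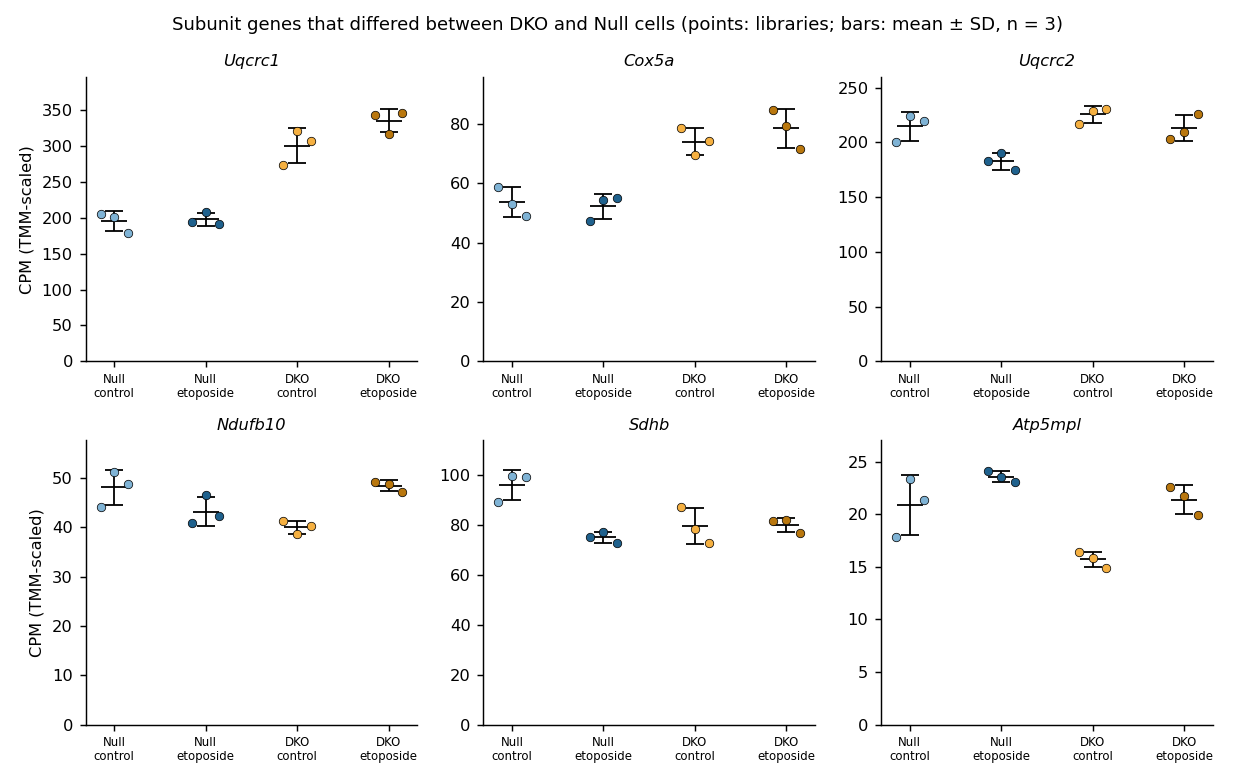
CPM (vertical axes, from 0) of 6 subunit genes in the 12 libraries by group, with points for libraries and bars for the mean ± SD (n = 3). For Uqcrc1 and Cox5a all 6 DKO libraries lie above all 6 Null libraries, and for Ndufb10 the DKO control libraries are the lowest group.

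The 4 genes lower in DKO control cells were Atp5mpl (-0.40 ± 0.0998, adjusted p = 0.0124), Sdhb (-0.27 ± 0.0784, adjusted p = 0.0272), Ndufb10 (-0.26 ± 0.0764, adjusted p = 0.0293) and Atp5o (-0.23 ± 0.0667, adjusted p = 0.0266). Atp5o encodes OSCP, the link between the stator stalk and the catalytic head. Each call was lost without Null control replicate 2, at -0.32 (adjusted p = 0.0691), -0.24 (0.115 as adjusted p), -0.21 (0.139) and -0.18 (0.139). The calls of Sdhb and Ndufb10 were also lost without Null control replicate 3 (-0.25, adjusted p = 0.0888, and -0.25, adjusted p = 0.0834), without DKO control replicate 2 (-0.28, adjusted p = 0.0621, and -0.25, adjusted p = 0.0811) and without DKO control replicate 3 (-0.21, adjusted p = 0.115, and -0.26, adjusted p = 0.0699). That of Ndufb10 was lost without Null etoposide replicate 3 too (-0.26, adjusted p = 0.0516), and that of Atp5mpl without DKO control replicate 3 (-0.36, adjusted p = 0.0506).

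After etoposide, 3 members were higher in DKO than in Null cells, namely Uqcrc1, Cox5a and Uqcrc2, and none was called lower by limma-trend. This was 3.61% of the set against 33.6% of all genes tested (15.9% higher, 17.8% lower). No member was lower at an unadjusted p under 0.05, nor by edgeR or DESeq2. The median was 0.05 (all genes -0.01), and for 66 members the interval lay within 1.5-fold. Without DKO control replicate 1, a library outside this contrast, 7 members were called higher. More members were also called higher when only the groups compared were fitted. Replicates varied less with the drug, with a median SD per member of 0.08 (Null) and 0.13 (DKO). Among controls this SD was 0.19 (Null) and 0.22 (DKO). The main fit shares its error among all groups and so averages over this unequal spread. The comparison with 33.6% holds for the main fit alone.

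The etoposide responses of the lines were then compared directly. The difference, DKO minus Null, was positive for 72 of 83 members and for 8801 of the 18066 genes tested (medians 0.14 and -0.01). All 17 genes of ATP synthase were among the 72. It was also positive for 67 of 78 mitochondrial ribosomal proteins (median 0.13), 39 of 53 assembly factors (0.12) and 13 of 13 tricarboxylic acid cycle genes (0.19). This held for 9 of 17 electron carrier and coenzyme Q genes (0.00), 5 of 14 regulators (-0.18) and 3 of 13 mitochondrial genome subunits (-0.07). All genes were read from the same 12 libraries, so these signs are not independent. Only Ndufb10 passed, 1.20% of the set against 9.45% of all genes tested (3.07% higher, 6.39% lower), and 4 members were positive and none negative at an unadjusted p under 0.05. The median difference ran from 0.08 to 0.23 when single libraries were left out. Of the 83 intervals, 43 lay within 1.5-fold.

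Ndufb10 is a membrane arm subunit of complex I at chr17:24722060-24724478 (minus strand). It read 44.2, 51.3 and 48.9 CPM in Null control, 40.9, 46.5 and 42.3 CPM in Null etoposide libraries, then 41.3, 38.6 and 40.2 CPM in DKO control and 49.3, 48.9 and 47.2 CPM in DKO etoposide libraries. It rose in DKO cells without overlap (0.28 ± 0.0764, adjusted p = 0.0121), while the Null groups overlapped and differed by -0.15 ± 0.0764 (adjusted p = 0.133). The fall in Null cells passed with the length and GC correction (-0.23, adjusted p = 0.0228) and without Null control replicate 1 (-0.22, adjusted p = 0.043). The difference of responses was 0.43 ± 0.108 (adjusted p = 0.0249). It was lost in 8 of 22 alternative settings, with adjusted p of 0.0502 to 0.0796 when DKO control replicate 2 (0.43), DKO etoposide replicate 1 (0.44), Null control replicate 2 (0.38), Null control replicate 3 (0.42), Null etoposide replicate 1 (0.41) or Null etoposide replicate 3 (0.41) was left out. The members next in order of adjusted p were Sdhb, Ndufv3, Uqcr11, Ndufb4 (0.33 ± 0.163, adjusted p = 0.277), Ndufa4 (0.21 ± 0.102, adjusted p = 0.284), Atp5o (0.318), Atp5mpl (0.337), Atp5d (0.346) and Ndufc1 (0.358, each an adjusted p), none of which passed.

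**Figure D4:**
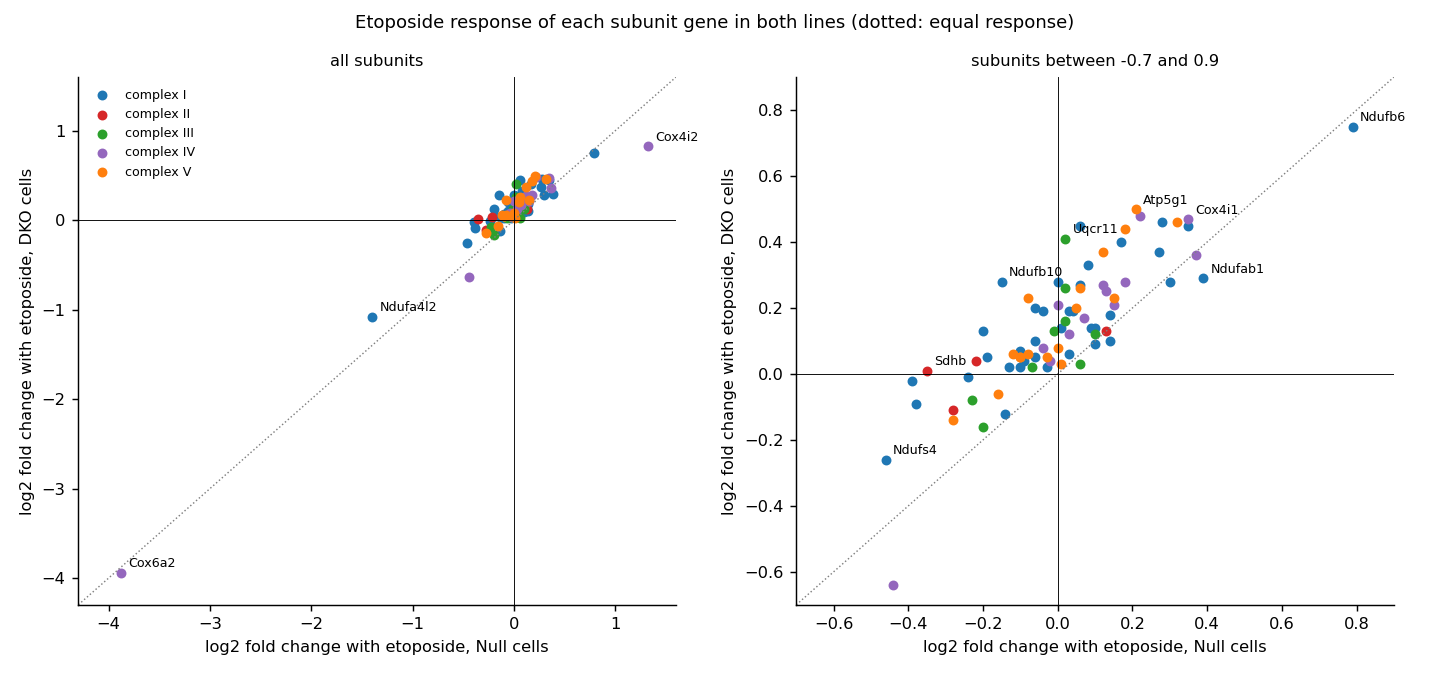
Log2 fold change with etoposide in DKO cells (vertical) against that in Null cells (horizontal) for each of the 83 subunit genes, colored by complex, with all genes at left and an enlarged view at right. Points above the dotted line of equal response number 72, and Cox6a2 lies near the line at the lower left.

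Within each group, the summed nuclear and the summed mitochondrial subunit transcripts ranked the libraries in opposite order. The summed level of the 83 members was 7556, 8408 and 8505 CPM in Null control, 7720, 8256 and 7807 CPM in Null etoposide libraries, then 8275, 7699 and 7569 CPM in DKO control and 8356, 8652 and 8236 CPM in DKO etoposide libraries. The 13 subunit genes of the mitochondrial genome summed to 19117, 15856 and 12450 CPM in Null control, 18106, 14720 and 16999 CPM in Null etoposide libraries, then 10310, 20105 and 24507 CPM in DKO control and 16991, 14983 and 22152 CPM in DKO etoposide libraries. In all 4 groups the order of the 3 libraries by nuclear members was the reverse of their order by mitochondrial subunits. This held on library sizes without TMM and with the mitochondrial genome left out of the library size. By complex, the order was reversed in 4 groups for complexes I, II and IV, in 3 for complex V and in 0 for complex III, whose sums followed the mitochondrial order in both DKO groups (1047, 1192 and 1227 CPM in control and 1247, 1188 and 1341 CPM in etoposide libraries). Of the 83 members, 27 (32.5%) were lowest in the library with the most mitochondrial subunit transcripts in every group, as were 7.88% of all genes tested. Of the 13 mitochondrial subunit genes, 6 were highest there in every group. Mitochondrial rRNA did not follow the subunit sums throughout. Its order was the opposite in Null control (117118, 152492 and 169072 CPM) and DKO control libraries (166638, 156823 and 152317 CPM). It was the same in Null etoposide libraries (194580, 172629 and 189009 CPM) and neither in DKO etoposide libraries (151032, 164993 and 152396 CPM). With 3 libraries a group, this is a description without a test, and whether it comes from the cells or from library preparation was not tested.

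**Figure D5:**
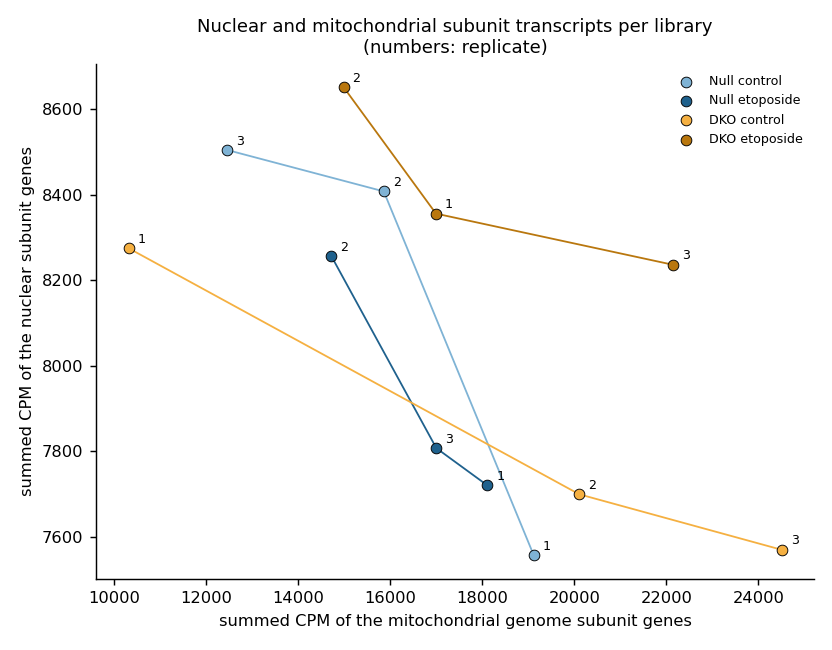
Summed CPM of the 83 nuclear subunit genes (vertical axis, not from 0) against summed CPM of the 13 mitochondrial genome subunit genes (horizontal) for the 12 libraries, numbered by replicate and joined within a group. All 4 lines descend from left to right.

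None of the 13 mitochondrial genome subunit genes was called by limma-trend, edgeR or DESeq2 in any contrast. At an unadjusted p under 0.05, 1 was higher with etoposide in Null cells, 1 in DKO against Null control cells and 1 in DKO against Null etoposide cells, with none in the other directions or contrasts. These genes were noisy, with 3 to 5 intervals within 1.5-fold per contrast, so changes of that size could not be seen for most of them. The same spread touched the nuclear members. Among the control libraries the median member deviated from its mean over all libraries by -0.14, 0.08 and 0.10 in Null and by 0.07, -0.11 and -0.15 in DKO cells on the log2 scale.

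Genes that serve the chain without being subunits were counted in the same way. Of 53 assembly factors, 9 rose and 10 fell with etoposide in Null cells and 14 rose and 5 fell in DKO cells, 35.8% in each line, beside 39.6% and 39.3% of all genes in the same comparisons. In DKO against Null cells after etoposide 12 were higher and 2 lower (26.4%, all genes 33.6%). Ndufaf1, a complex I assembly factor, had the largest rise in both lines, at 0.61 and 0.73, and Cox10, which makes heme o for complex IV, the largest fall in Null cells, at -0.93. Of 17 genes for electron carriers and coenzyme Q synthesis, 3 rose and 1 fell in Null cells (23.5%) and 5 rose and 1 fell in DKO cells (35.3%). Cycs, cytochrome c, rose by 0.33 ± 0.108 in Null cells (adjusted p = 0.0274) and by 0.46 ± 0.108 in DKO cells (adjusted p = 0.00457), with 76.4, 100 and 104 CPM in Null control and 121, 118 and 111 CPM in Null etoposide libraries. The call in Null cells was lost without Null control replicate 1 (0.19, adjusted p = 0.086), Null etoposide replicate 1 (0.29, adjusted p = 0.101) or Null etoposide replicate 2 (0.33, adjusted p = 0.0771), and the rise was 0.50 with the length and GC correction. Of 78 mitochondrial ribosomal proteins, 8 rose and 11 fell in Null cells (24.4%) and 20 rose and 5 fell in DKO cells (32.1%), with medians of -0.01 and 0.18. Of 13 tricarboxylic acid cycle genes, 1 rose and 5 fell in Null cells and 3 rose and 3 fell in DKO cells (46.2% in each line).

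Several factors that regulate these genes fell with etoposide. Of 14 tested regulators of mitochondrial gene expression, 3 rose and 6 fell with etoposide in Null cells (64.3%, all genes 39.6%) and 2 rose and 6 fell in DKO cells (57.1%, all genes 39.3%). Nrf1 read 45.0, 44.9 and 43.2 CPM in Null control and 23.5, 24.4 and 22.9 CPM in Null etoposide libraries, and 42.1, 45.5 and 47.3 CPM and then 20.8, 21.4 and 22.4 CPM in DKO cells. Nrf1 fell by 0.91 ± 0.0695 (adjusted p = 7.05e-07) and by 1.06 ± 0.0695 (adjusted p = 1.29e-07) on the log2 scale. Gabpa, the DNA-binding subunit of GABP, fell by 0.34 ± 0.122 in Null cells (adjusted p = 0.0421) and by 0.54 ± 0.122 in DKO cells (adjusted p = 0.00358), and the call in Null cells was lost when any of the Null libraries except control replicate 3 was left out, and without DKO control replicate 2 (-0.38 to -0.29, adjusted p up to 0.121). It was also lost with the length and GC correction (-0.20, adjusted p = 0.184). Esrra, an orphan nuclear receptor that works with PGC-1 coactivators, rose by 0.81 ± 0.179 (adjusted p = 0.00329) and by 0.55 ± 0.179 (adjusted p = 0.0275). The call in DKO cells was lost without DKO control replicate 2 (0.48, adjusted p = 0.0935) or 3 (0.43, adjusted p = 0.107) and without DKO etoposide replicate 1 (0.54, adjusted p = 0.0729) or 2 (0.45, adjusted p = 0.0984), and with the length and GC correction (0.41, adjusted p = 0.135).

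Ppargc1b, which encodes the coactivator PGC-1beta, read 26.8, 23.4 and 17.9 CPM in Null control, 10.3, 9.93 and 10.7 CPM in Null etoposide libraries, then 9.60, 13.0 and 13.1 CPM in DKO control and 10.0, 8.06 and 10.0 CPM in DKO etoposide libraries. Null control libraries stood above the other 9. It fell by 1.12 ± 0.160 with etoposide in Null cells (adjusted p = 1.36e-04) and was lower by 0.92 ± 0.160 in DKO control cells (log2 difference -0.92, adjusted p = 0.00106). Ppargc1a, the related coactivator, was at 0 to 0.151 CPM and was not tested. Tfam, which packages the mitochondrial genome and helps to start its transcription, was lower in DKO than Null cells after etoposide (-0.54 ± 0.157, adjusted p = 0.0187). That call was lost without DKO etoposide replicate 1 (-0.50, adjusted p = 0.0658) or 3 (-0.48, adjusted p = 0.0692) or Null etoposide replicate 2 (-0.52, adjusted p = 0.0615) or 3 (-0.55, adjusted p = 0.053). The levels of these factors are transcript levels, and their activity was not measured. Of 28 lysosomal and autophagy genes listed as CLEAR targets, 4 were higher and 5 lower in DKO than in Null control cells (32.1%, all genes 19.3%), and 8 were higher and 5 lower after etoposide (46.4%, all genes 33.6%).

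Promoter letters were searched because both the deleted factors and the regulators above have known binding motifs. RefSeq promoter windows (GRCm38.p6, 250 bases before to 50 after the start) were found for 65 members and compared with 27025 promoters in all. The E-box CACGTG was in 5 members (7.69%), Atp5g1, Atp5g3, Atp5l, Ndufa7 and Ndufv1, and in 7.24% of all promoters. The CLEAR core TCACGTGA, which contains the E-box, was in Ndufa7 alone (1.54%, all promoters 1.01%). The consensus NRF1 motif was in 16 members (24.6%, all promoters 4.78%), the ETS motif CCGGAAG in 15 (23.1%, all promoters 9.12%) and the YY1 motif AANATGGCG in 8 (12.3%, all promoters 2.51%), each read on both strands. Counting only the bases before the start left 1 member with the YY1 motif, against 1.12% of all promoters.

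These stretches are shown 5′ to 3′ on the strand of the gene, with motif letters in capitals. Ndufa7 (chr17:33824472-33824531, plus strand), the member with the CLEAR core, rose by 0.46 ± 0.143 with etoposide in DKO cells (adjusted p = 0.0222), a call lost without DKO control replicate 3 (0.30, adjusted p = 0.0898), DKO etoposide replicate 1 (0.40, adjusted p = 0.0822) or DKO etoposide replicate 2 (0.43, adjusted p = 0.0649). Atp5g1 (chr11:96075647-96075706, minus strand) holds an E-box with other flanks. Sdhd (chr9:50603875-50603944, minus strand) holds the NRF1 and the ETS motif, the latter read on the other strand, and was not called in any contrast. Uqcr11 (chr10:80406857-80406916, minus strand) holds the ETS motif, and Uqcrc1 (chr9:108936640-108936669, plus strand), the gene with the largest called genotype difference, the NRF1 motif, read on the other strand, among its first transcribed bases.
Ndufa7: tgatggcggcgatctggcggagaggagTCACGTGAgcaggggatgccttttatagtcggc
Atp5g1: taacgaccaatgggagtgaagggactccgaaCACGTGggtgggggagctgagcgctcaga
Sdhd: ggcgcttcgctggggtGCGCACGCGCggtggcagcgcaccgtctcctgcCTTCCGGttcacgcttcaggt
Uqcr11: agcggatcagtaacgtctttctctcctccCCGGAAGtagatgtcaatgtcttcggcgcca
Uqcrc1: agtcttccttacaGCGCTTGCGCctcagac
Neither Uqcrc1 nor Cox5a, the members higher in DKO cells under every setting, was among the 5 members in which an E-box was found. Windows of 300 bases were at hand for 65 members, and a gene without a match may lack a window or hold the letters outside it. Binding was not tested. A match says only that the letters are present.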

How the data were processed

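RNA was sequenced from 12 libraries of RAW264.7 cells, grouped by their titles. The deposited table holds raw, unnormalized counts by gene. By the study's methods, the authors used HISAT2 for alignment after adapter trimming where needed, discarded pairs that did not map uniquely, and counted with HTSeq on a GENCODE annotation. The submitters' processing notes instead name featureCounts, with mm10. The study's methods name a stranded library kit, but versions and the strand setting of the counting are not given in the sources used here. If strand was ignored, counts of genes that overlap on opposite strands may hold reads of both. Unique mapping lowers counts of genes with near-identical copies.

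Symbols and coordinates came from GENCODE M21 (GRCm38), which held 99.43% of the 32688 identifiers, and coordinates are those of that annotation. The members and lists were chosen with earlier results of these data known. Genes were kept by filterByExpr of edgeR 4.0.16 (18066 genes, 99.96% of counts). Log2 CPM with TMM factors (0.939 to 1.034) and a prior count of 3 were tested with limma 3.58.1 (limma-trend, robust, R 4.3.3), the test the study's methods name, in 1 model over all 12 libraries with a mean per group. The 5 contrasts were etoposide against control in each line, DKO against Null in control and in etoposide cells, and the interaction. P-values are two-sided and adjusted by Benjamini-Hochberg over all genes tested, with calls at 0.05. An error after ± is the standard error of a log2 difference, with 3 libraries per group. It rests on 1 variance per gene shared by all groups, although replicates varied less after etoposide than in controls. Replicates differed by 1.55 to 24.4 times the variance of counting, so no pair was counted as 1 library; repeat preparations from 1 culture cannot be told apart from separate cultures. Levels per kb use the median length of a gene's protein-coding transcripts, and the length of its principal transcript as an alternative added after seeing the data.

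On simulated counts for etoposide in Null cells (17691 genes), 27.3% of genes changed 1.5-fold, 54.5% of those changed 2-fold and 89.2% of those changed 4-fold were called, and 0.04% of unchanged genes. The simulation changed only 66, 66 and 65 tested genes at these sizes, drawn at random over all levels. In the data, 7148 of 18066 genes were called, so these rates do not give the sensitivity for the members. Alternatives were edgeR's quasi-likelihood test, DESeq2 1.42.0, other scalings, filters and prior counts, a length and GC correction, a replicate block and the omission of each library. Members named were the 5 largest called changes in each direction per contrast, the 2 highest genes per complex by level per kb, catalytic and conserved subunits, isoform sets and the 10 smallest adjusted p of the interaction; of other lists, the largest called changes and chosen regulators.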

Additional observations from a re-analysis of the deposited data

Results flagged for a closer look

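The response to etoposide differed between the lines for 1708 of the 18066 genes tested by the interaction test of limma-trend, adjusted by Benjamini-Hochberg over all genes (DKO minus Null, log2 scale). The 6 genes given here are those among them that the naming rule selects from the subunits and the mitochondrial lists, and Coa3 (0.43), Mrpl41 (0.45) and Mrps27 (0.52) of those lists passed too. Ndufb10, the one subunit gene that passed, differed by 0.43. Ogdh, the decarboxylating subunit of the 2-oxoglutarate dehydrogenase complex, differed by 0.37 ± 0.0847 (adjusted p = 0.0147) and was lower with etoposide in Null cells (-0.20) and higher in DKO cells (0.17), with 183, 192 and 185 CPM falling to 161, 167 and 161 CPM in Null and 170, 166 and 156 CPM rising to 186, 185 and 182 CPM in DKO libraries. Without Null control replicate 2 (0.35, adjusted p = 0.0513) or Null etoposide replicate 3 (0.36, adjusted p = 0.0552) the interaction call was lost. The rise in DKO cells passed narrowly and shrank to 0.03 (adjusted p = 0.668) with the length and GC correction and to 0.14 (adjusted p = 0.129) without DKO control replicate 3.

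Mrpl36, a protein of the large mitochondrial ribosomal subunit, differed by 0.63 ± 0.135 (adjusted p = 0.0101), from 19.9, 25.6 and 22.6 CPM to 17.6, 17.9 and 18.1 CPM in Null cells and from 25, 23.2 and 21.6 CPM to 29.6, 29.1 and 26.9 CPM in DKO cells. It shares 30 exonic bases with Ndufs6 on the opposite strand, which was not called in any contrast. Uqcc3, a complex III assembly factor, differed by 0.45 ± 0.124 (adjusted p = 0.0412), with 29.1, 28.7 and 29.3 CPM in DKO etoposide libraries and at most 20.9 CPM in the other 9. Gabpb2, a subunit of the ETS factor GABP, differed by -0.37 ± 0.0977 (adjusted p = 0.0347). Ppargc1b differed by 0.78 ± 0.226 (adjusted p = 0.0498), close to the threshold, with Null control libraries above all others. The calls of Uqcc3, Gabpb2 and Ppargc1b were lost when any of several single libraries was left out, at 0.37 to 0.49, -0.39 to -0.30 and 0.65 to 0.88 with adjusted p of up to 0.121, 0.137 and 0.119. Causes were not tested. With 3 libraries a group, single libraries were not tested for standing apart.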

How the results depend on the processing

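Beside the limma-trend counts, 23 alternative settings were run. The median log2 change of the members moved by less than 1 SD between libraries under each, though in relative terms it moved much (ranges without single libraries: -0.06 to 0.05 for etoposide in Null, 0.11 to 0.20 in DKO, -0.18 to -0.05 and 0.03 to 0.08 for DKO against Null in control and etoposide cells, 0.08 to 0.23 for the interaction), and no called gene that is named here changed sign. The median for etoposide in Null cells, near 0, changed sign. Counts of members moved more. Leaving out single libraries gave 2 to 5 higher and 5 to 11 lower for etoposide in Null, 9 to 24 higher in DKO, 0 to 14 lower in DKO against Null controls, 2 to 7 higher after etoposide and 0 to 2 in the interaction. With only the 50 members free of exon overlap or a named pseudogene, counts were 1 higher and 4 lower for etoposide in Null, 7 higher and 1 lower in DKO, 1 higher and 3 lower for DKO against Null controls, and 1 higher after etoposide. With the 61 members of few shared stretches, a choice made after seeing the data, 1 was higher and 7 lower for etoposide in Null, 8 and 3 in DKO, 1 and 3 for DKO against Null controls, and 1 was higher after etoposide. A smaller set has fewer members to call. The length and GC correction gave 19 higher for etoposide in DKO. For DKO against Null controls, DESeq2 gave 4 higher, and the number lower was 1 with no filter on low counts, 0 with only the groups compared and 2 with the replicate block, with or without the correction. Fitting only the groups compared gave 11 higher after etoposide. The interaction had 2 with DESeq2 or scaling without the mitochondrial genome, and 0 with no filter or with the replicate block. The causes were not tested.

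Replicate numbers did not pair the libraries: deviations of same-numbered libraries correlated between -0.542 and 0.394, and the block result is given only here. Over all genes, DKO against Null controls gave 1974 higher and 1516 lower, but 1139 and 892 with only the groups compared and 2290 lower without DKO control replicate 1. The interaction gave 554 higher, but 876 with DESeq2, 368 when Null control replicate 2 was omitted and 350 when Null etoposide replicate 3 was. Counts of the members of lowest level (Cox4i2, Cox6b2, Ndufa4l2) are limited by depth.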
